A study of Homo sapiens with 8 samples.

Results

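Loss of the CDK2 gene was compared with chemical inhibition of CDK activity in HCT-116, a line of human colorectal carcinoma cells. The comparison used 4 of the 8 arrays of the series. The members were all arrays labelled as CDK2 knockout (CDK2-/-, 2 arrays, untreated) and all arrays of parental cells exposed for 24 h to NU6102 at 20 µM (WT+NU6102, 2 arrays). All cells were in the parental HCT-116 background, and the labels give the CDK2-/- cells as growing exponentially. The series also holds 2 arrays of untreated parental cells (WT) and 2 of R50 cells maintained in 50 µM NU6102. The submitters describe the samples of a condition as biological replicates. The CDK2-/- line was bought as such, and the sources used here do not say whether it is 1 clone. A difference from WT+NU6102 can therefore come from the line as well as from the gene, and a state of long standing is set against an exposure of 24 h. Both CDK2-/- arrays lay on slide 1 and both WT+NU6102 arrays on slide 2, together with WT, so slide and group cannot be told apart. In these bulk samples fewer cells of a kind and less RNA per cell cannot be told apart either.

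CDK2 is a serine/threonine kinase that binds cyclins E and A at the start and during S phase, and it phosphorylates RB1 and its relatives, which releases E2F transcription factors. CDK1 pairs with cyclins A and B and drives mitosis, and it can also bind cyclin E when CDK2 is missing. NU6102 is a purine that competes with ATP in the kinase domain of CDK2 and also inhibits CDK1, so the protein stays in the cell while its activity is blocked, whereas in the knockout the protein itself is missing.

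Each array carried 62976 spots, of which 58717 were no controls, and between 32103 and 35913 spots were well above background. Signals were put on the log2 scale and set relative to their array's 75th percentile, which therefore has the value 0. This quantity is called the log2 signal here. It can be compared between groups for a probe but not between probes. A probe was tested where both arrays of either group read it well above background, which left 27923 of 50599 probes, naming 16649 genes. Across these probes, which are no independent replicates, the duplicates correlated with r = 0.9957 for CDK2-/- and 0.9947 for WT+NU6102. No spot was saturated. With 2 arrays a group, precision is limited by their number.

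The targeted gene was examined first. CDK2 is read by 1 probe on chromosome 12 of hg19 from 56365789 to 56365848. Its log2 signal was -1.56 and -1.51 in CDK2-/- and -0.44 and -0.42 in WT+NU6102, against -0.76 on both WT arrays. The groups did not overlap. The log2 fold change of CDK2-/- against WT+NU6102 was -1.11 (SE 0.04, limma adjusted p = 3.41e-05), which is 2.15-fold less. The probe was still well above background on both CDK2-/- arrays. Whether it lies in the altered part of the gene is not given in the sources used here.

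Over all probes the 2 states differed widely. A probe was called where limma's moderated test gave a Benjamini-Hochberg adjusted p below 0.05 and the states differed by 1 or more on the log2 scale. This held for 3273 probes, 11.7% of those tested. Of these 2245 (8.04%) were higher in CDK2-/- and 1028 (3.68%) were lower. With only the 25078 probes well above background on all 4 arrays, 1423 were higher and 789 lower. Over all tested probes and without the minimum fold change the directions were nearly balanced, with 7402 probes higher and 7939 lower. This balance depended on the scaling. When the percentile was taken over probes well above background on all 8 arrays, the median of all tested probes moved from -0.0029 to 0.12, and 9499 probes were higher and 6073 lower. Changes smaller than this shift are given below without a direction. Taking the brightest probe of each gene, 4865 genes (29.2%) were higher and 5106 (30.7%) lower in CDK2-/- at an adjusted p under 0.05, and the lists below are read against these shares.

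**Figure D1:**
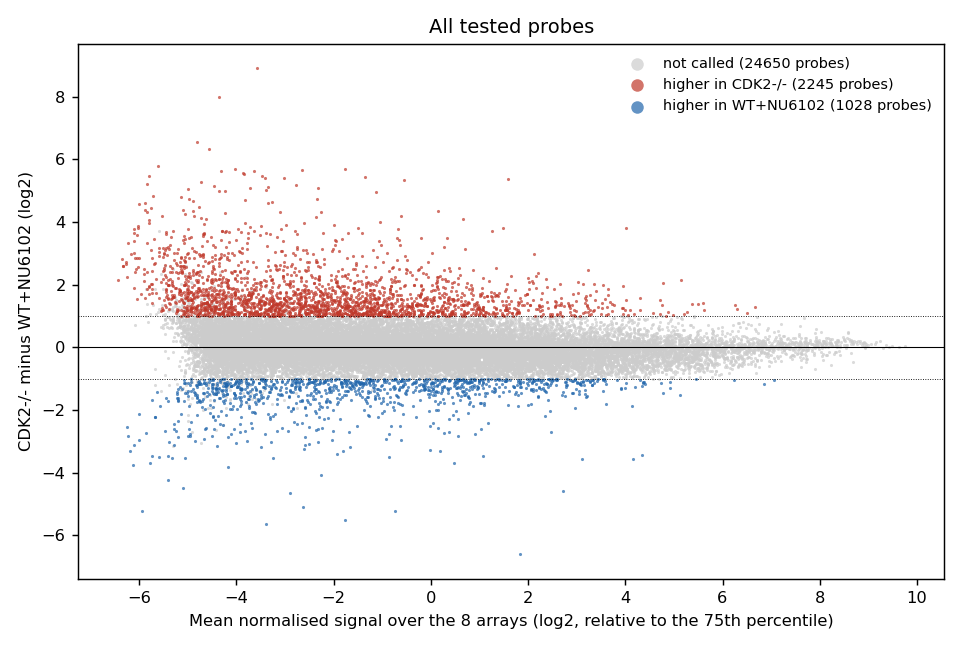
Log2 difference between CDK2-/- and WT+NU6102 (vertical axis) against the mean log2 signal over the 8 arrays (horizontal axis) for the 27923 tested probes. Red probes are the 2245 called higher in CDK2-/- and blue probes the 1028 called higher in WT+NU6102, and the dotted lines mark a 2-fold difference. Most called probes lie at signals below 4, and red outnumbers blue.

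Several epithelial genes stood among the largest differences in genes measured in both states. GRHL3, a grainyhead transcription factor of epithelial barriers, had a log2 signal of 1.77 and 1.91 in CDK2-/- and of -3.45 and -4.26 in WT+NU6102, a 51.7-fold difference (log2 fold change 5.69, SE 0.26, adjusted p = 4.65e-05). LY6D, a GPI-anchored surface protein of epithelia, stood at 3.38 and 3.24 in CDK2-/- and at -2.13 and -2.01 in WT+NU6102 (41.6-fold, adjusted p = 7.01e-06). DPP4, a peptidase of the intestinal brush border, stood at 2.34 and 2.29 against -3.05 and -3.04 (40.9-fold, adjusted p = 6.41e-06). No array of one state overlapped the other for any of these genes. For GRHL3 the greater part of the difference lay on the side of CDK2-/-, which was 4.66 above WT on the log2 scale, while the log2 difference of WT+NU6102 from WT was -1.03. For LY6D the 2 sides were of similar size, with CDK2-/- 2.56 above WT and a log2 fold change of -2.82 for WT+NU6102.

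Other genes at the top were ZC4H2, a zinc finger protein (50.7-fold), PLEKHA6, a protein of epithelial junctions (30.9-fold), AQP3, a channel for water and glycerol (17.0-fold), PLCB2, a phospholipase C (16.0-fold), KRT23, a type I keratin (14.1-fold), ASB9, a subunit of a ubiquitin ligase (14.1-fold), FXYD3, a regulator of the sodium pump (13.9-fold), RNF43, a ubiquitin ligase that removes Wnt receptors (13.7-fold), and FER1L4 (13.1-fold). RNF43 was 2.46 and 2.5 in CDK2-/- and -1.33 and -1.27 in WT+NU6102. The latter values were close to the -1.27 and -1.20 of WT, and the log2 difference of WT+NU6102 from WT was -0.07 (adjusted p = 0.37). A second probe of FER1L4 had a log2 fold change of only 0.32 (adjusted p = 0.227), so the change of that gene rests on its brighter probe. The size also differed between probes for KRT23, whose dimmer probe gave 4.26-fold, and FXYD3, whose dimmer probes gave 20.7-fold and 2.34-fold. For AQP3 the dimmer probe gave 18.1-fold.

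The largest fall in CDK2-/- was that of SPARC, which encodes a secreted protein that binds collagen and shapes the matrix. Its log2 signal was -4.38 and -3.83 in CDK2-/-, 2.55 and 2.47 in WT+NU6102, and 3.55 and 3.87 in WT. The level was 98.0-fold lower in CDK2-/- than in WT+NU6102 (log2 fold change -6.62, SE 0.20, adjusted p = 1.98e-05). The probe lies at chr5:151041040-151041099 of hg19. The CDK2-/- arrays lay far below the other 4, which did not overlap each other.

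CXCR4, the receptor of the chemokine CXCL12, behaved differently relative to WT. It stood at -4.30 and -4.33 in CDK2-/- and at -3.92 and -3.76 in WT, but at -0.83 and -0.72 in WT+NU6102. The 11.7-fold difference (adjusted p = 1.27e-05) thus lay mainly on the side of the treated cells. Its CDK2-/- values are dim, as the lowest signals well above background on these arrays were -5.3 and -4.9. Over the processing alternatives the log2 fold change ranged from -3.63 to -2.16.

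NT5E, the ecto-enzyme that forms adenosine, and VGF, a precursor of neuroendocrine peptides, moved away from WT in both states but in opposite directions. NT5E was -2.20 and -2.59 in CDK2-/-, 1.08 and 1.11 in WT+NU6102, and -0.09 and -0.03 in WT (11.2-fold between the 2 states, adjusted p = 4.35e-05). VGF was 2.94 and 2.97 in CDK2-/-, 6.36 and 6.43 in WT+NU6102, and 4.61 and 4.68 in WT (10.9-fold, adjusted p = 7.01e-06). SAMD4A, an RNA-binding regulator of translation, and CXCL1, a chemokine that attracts neutrophils, were 9.94-fold and 9.09-fold lower in CDK2-/-. The other 3 probes of SAMD4A gave log2 fold changes of -2.67, -0.67 and -0.43, of which the last did not pass (adjusted p = 0.162). The uncharacterised loci LOC645638 and LOC100131138 were 10.5-fold and 9.71-fold lower. Their dimmer probes gave 3.46-fold and 7.71-fold, and the dimmer probe of CXCL1 gave 3.31-fold and that of NT5E 8.62-fold, all lower in CDK2-/-.

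**Figure D2:**
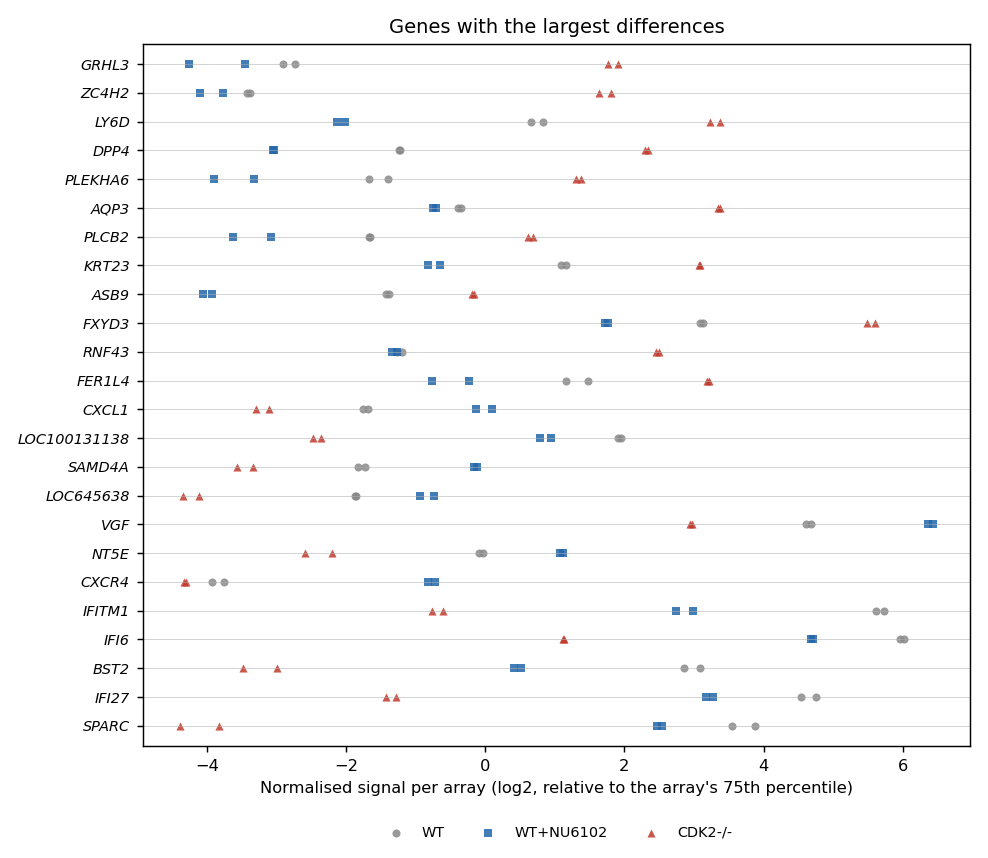
Log2 signal of each array (horizontal axis) for the 12 genes with the largest rise and the 12 with the largest fall in CDK2-/- against WT+NU6102, with WT beside them. Circles are WT, squares WT+NU6102 and triangles CDK2-/-, with 2 arrays each. For SPARC and the 4 interferon genes CDK2-/- lies far below both other groups, whereas for CXCR4 it lies beside WT.

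Some genes were measured in only 1 of the 2 states. Of the called genes, 335 were well above background on both CDK2-/- arrays while none of their tested probes was so on a WT+NU6102 array. For 56 genes it was the other way round. Of all tested probes, 2177 were well above background on both CDK2-/- arrays but not on both WT+NU6102 arrays, and 668 the reverse. The filter thus admitted more probes through CDK2-/-. For the 335 and 56 genes the fold changes are lower bounds, set by the dimmest probe well above background on each array. UTS2, the vasoactive peptide urotensin, was 0.26 and 0.28 in CDK2-/- and not well above background on the WT+NU6102 arrays, which gives a level at least 35.1-fold higher in CDK2-/- (adjusted p = 4.58e-05, measured means 0.27 and -5.14). KLHDC9 was at least 31.8-fold, NOSTRIN, which controls the traffic of nitric oxide synthase, at least 26.3-fold, and ICAM1, an adhesion molecule for leukocytes, at least 24.9-fold higher. UTS2 and KLHDC9 were well above background on both WT arrays, NOSTRIN and ICAM1 on neither. In the other direction LOC100505813 was at least 32.7-fold higher in WT+NU6102 (adjusted p = 8.33e-06, measured means -0.08 and -5.30). LRP1B, a giant receptor of the LDL receptor family, was at least 19.5-fold, GNG11, a G protein subunit, at least 12.4-fold, SLC15A1, the intestinal peptide transporter, at least 9.31-fold, and IFI44 at least 6.90-fold higher in WT+NU6102. All 5 of these were well above background on both WT arrays.

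The cyclin-dependent kinases and their cyclins, CDK2 included, were mostly lower in CDK2-/- when each was read by its brightest probe. Of 13 genes listed 11 were tested, and 9 were lower in CDK2-/- than in WT+NU6102, none was higher, and CDK4 and CCNE2 did not pass. The 9 include CCNB1, whose other probe passed in the opposite direction. The median log2 fold change was -0.59, against -0.0037 over all genes. CDK6, a D-type cyclin kinase, was 1.04 and 1.06 in CDK2-/- and 2.35 and 2.29 in WT+NU6102 (log2 fold change -1.27, SE 0.05, adjusted p = 3.29e-05). CDK1, the mitotic kinase, was 3.13 and 3.11 against 4.04 and 4.03 (-0.91, SE 0.04, adjusted p = 4.90e-05). CCND3, CCND1 and CCNA2, which encode cyclins D3, D1 and A2, had log2 fold changes of -0.81, -0.59 and -0.68. A second, dimmer probe of CDK1 gave 0.50 (adjusted p = 0.175), so this gene depends on the probe.

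Most of this lay on the side of the treated cells. Relative to WT, 9 of the 11 genes were higher and 1 lower in WT+NU6102, where 28.2% and 23.6% of all genes were higher and lower. In CDK2-/- 2 were higher and 4 lower, where the shares of all genes were 19.7% and 16.2%. CCNE1, which encodes cyclin E1, was above WT in both states, with a log2 difference of 0.73 in CDK2-/- and 1.17 in WT+NU6102, and it was lower in CDK2-/- than in WT+NU6102 with a log2 fold change of -0.44 (SE 0.06, adjusted p = 0.00159). CCNE2, for cyclin E2, was 2.66 and 2.67 in CDK2-/- and 2.54 and 2.60 in WT+NU6102, both above the 1.16 and 1.23 of WT. Between the 2 states it differed by 0.10, with a 95% confidence interval from -0.03 to 0.23 (adjusted p = 0.169). CDK4 differed by -0.18 with an interval from -0.33 to -0.02 and an adjusted p of 0.0533. CCNB1, for cyclin B1, had probes of opposite direction, with -0.44 (adjusted p = 0.000674) for the brighter and 1.32 (adjusted p = 4.95e-05) for the other, and no direction is given for it.

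Of the CDK inhibitor proteins, CDKN1C, which encodes p57, differed most. It was 2.30 and 2.37 in CDK2-/- and 0.97 and 1.0 in WT+NU6102 (log2 fold change 1.35, SE 0.07, adjusted p = 6.61e-05), with WT at 2.47 and 2.31. CDKN2C, for p18, was lower in CDK2-/- with a log2 fold change of -0.55 (adjusted p = 0.000504). CDKN1A, for p21, was 0.94 and 1.01 against 0.58 and 0.79 (0.29, SE 0.08, adjusted p = 0.0254). That call was lost in 5 of 17 processing alternatives, among them leaving out either CDK2-/- array or WT+NU6102 replicate 1. Over the alternatives the log2 fold change ranged from 0.19 to 0.41. RB1, the brake on E2F, was 2.88 and 2.85 in CDK2-/-, 2.44 and 2.39 in WT+NU6102, and 1.98 and 2.02 in WT. It was higher in CDK2-/- than in WT+NU6102 by 0.45 (adjusted p = 0.00141), whereas its relative RBL1 was lower with a log2 fold change of -0.88 (adjusted p = 0.000214; a dimmer probe gave -0.36 with adjusted p = 0.147) and RBL2 higher by 0.83 (adjusted p = 0.000925).

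Kinases and cyclins listed as transcriptional CDKs and their partners were mostly lower in CDK2-/-. Of 19 genes tested, 12 were lower and 4 higher in CDK2-/- (median -0.33). CDK8 of the Mediator complex was -1.26 and -1.42 in CDK2-/- and -0.44 and -0.37 in WT+NU6102 (log2 fold change -0.93, adjusted p = 0.00193), and CDK7, the kinase of TFIIH, was 3.09 and 3.04 against 3.85 and 3.90 (-0.81, adjusted p = 0.000107). CCNL2, a cyclin linked to splicing, was higher in CDK2-/- by 1.11 (adjusted p = 9.19e-05), and CDK10 by 0.94 (adjusted p = 7.88e-05).

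Genes of mitosis that passed the test were mostly lower in CDK2-/-. Of 60 mitosis genes tested 37 were lower and 8 higher, with a median of -0.27. BUB1, a kinase of the spindle checkpoint, was 1.90 and 1.91 in CDK2-/- and 2.73 and 2.69 in WT+NU6102 (log2 fold change -0.80, adjusted p = 9.11e-05), while CDC25B, the phosphatase that switches on CDK1, went the other way at 3.46 and 3.53 against 2.46 and 2.48 (1.03, adjusted p = 6.06e-05). CENPN, of the centromere, was lower with log2 fold changes of -1.06 and -1.08 on its brighter probes (adjusted p = 7.55e-05 and 0.00013) and gave 0.02 on the dimmest (adjusted p = 0.866). Of 56 replication genes 25 were lower and 10 higher, and the median of -0.11 became 0.01 under the other percentile scaling. GINS4, of the replicative helicase, was 1.82 on both CDK2-/- arrays and 2.63 and 2.62 in WT+NU6102 (-0.81, adjusted p = 0.000102), and ORC6, of the origin recognition complex, was lower with a log2 fold change of -0.77 (adjusted p = 8.06e-05). POLE2, a subunit of DNA polymerase epsilon, was higher by 0.79 (adjusted p = 0.000233).

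Replication-dependent histone genes that passed the test were, with 1 exception, higher in CDK2-/-. Of 59 listed 54 were tested, and 37 were higher in CDK2-/-, 1 was lower and 16 did not pass, with a median of 0.30. HIST1H4E was 5.35 and 5.31 in CDK2-/-, 4.53 and 4.71 in WT+NU6102, and 5.59 and 5.54 in WT (0.71, SE 0.08, adjusted p = 0.000786). Relative to WT, 48 of the 54 were lower in WT+NU6102 and 22 were lower in CDK2-/-. None passed a 2-fold difference between the 2 states. Histone genes are near-identical copies, and a probe may read several of them.

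Promoters of the cell cycle lists were searched on both strands for short motifs in RefSeq's GRCh38.p14 table, which holds 27305 promoters from 250 bases before to 50 after a gene's start. TTTGAA, the core of the element through which the DREAM complex holds mitotic genes silent, was found in 31 of the 47 mitosis promoters in the table, or 66%, against 15.4% of all promoters. An E2F site, TTTCCCGC or TTTGGCGC, was found in 18 of 49 replication promoters, or 36.7%, against 2.31% of all. Among replication genes it was in 5 of the 7 promoters of genes higher in CDK2-/-, 5 of 23 of genes lower and 8 of 19 of genes that did not pass. Among mitosis genes TTTGAA was in 3 of 7 promoters of genes higher, 20 of 28 of genes lower and 8 of 12 of genes that did not pass. These counts describe letters in a window and were not tested.

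The interferon-stimulated genes encode antiviral proteins and are switched on by a complex that contains STAT2 and IRF9 and binds a promoter element called ISRE. Of 66 listed 55 were tested, and between the 2 states 21 were lower and 19 higher in CDK2-/- and 15 did not pass, shares near the 29.2% higher and 30.7% lower over all genes. Relative to WT the list had 1 direction. In CDK2-/- 51 of the 55 were lower than WT and none was higher, and in WT+NU6102 52 were lower and none was higher, with medians of -1.48 and -1.42. Both comparisons share the WT arrays, and CDK2-/- lay on another slide than WT. The median between the 2 states was -0.02 and ranged from -0.11 to 0.10 over the processing alternatives. MX1 was -2.81 and -2.75 in CDK2-/-, -3.56 and -3.59 in WT+NU6102, and -0.50 and -0.61 in WT.

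The members lower in CDK2-/- were those with the widest differences. IFI27, a mitochondrial protein, was -1.28 and -1.42 in CDK2-/-, 3.28 and 3.18 in WT+NU6102, and 4.76 and 4.54 in WT (23.9-fold lower in CDK2-/- than in WT+NU6102, adjusted p = 9.30e-06). BST2, or tetherin, which holds budding viruses at the cell surface, was 13.0-fold lower (adjusted p = 4.71e-05), IFI6 11.9-fold (adjusted p = 6.41e-06) and IFITM1, which blocks viral entry, 11.7-fold (adjusted p = 1.98e-05). IFITM1 was -0.77 and -0.61 in CDK2-/-, 2.98 and 2.74 in WT+NU6102, and 5.73 and 5.62 in WT, so the treated cells lay between the others. The members higher in CDK2-/- differed less. SAMD9, a cytoplasmic antiviral factor, was -2.71 and -2.77 in CDK2-/-, -4.12 and -4.08 in WT+NU6102, and -1.24 and -1.26 in WT (log2 fold change 1.37, SE 0.06, adjusted p = 4.78e-05). ISG20, an exonuclease, was 2.11 and 2.15 against 0.87 and 0.89 (1.25, adjusted p = 4.09e-05), and IRF9, the DNA-binding subunit of the interferon factor, was -0.66 and -0.60 against -1.76 and -2.00 (1.25, adjusted p = 0.000141).

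**Figure D3:**
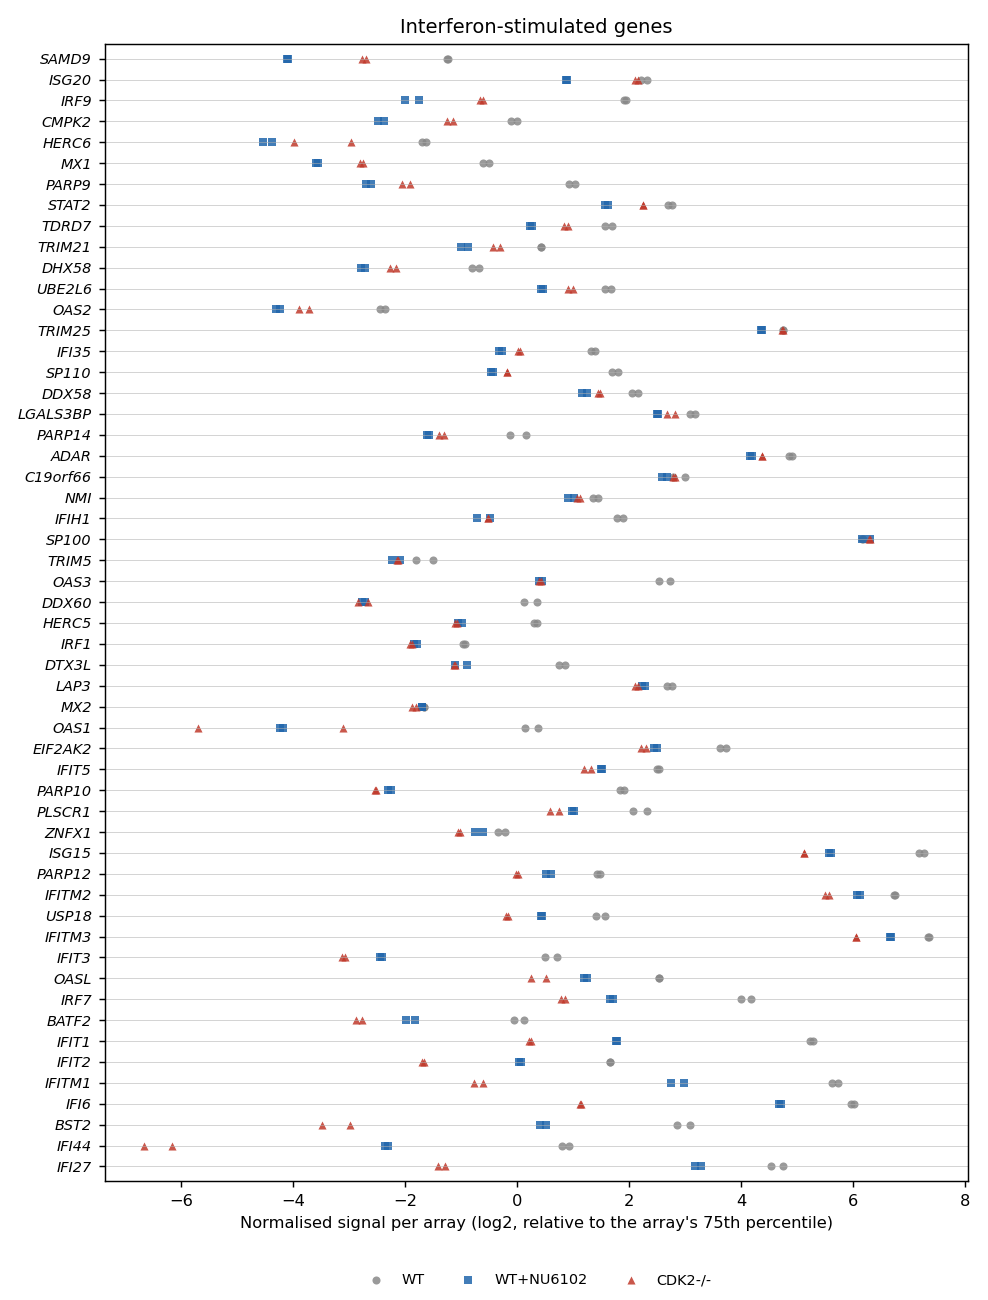
Log2 signal of each array (horizontal axis) for 54 of the 55 interferon-stimulated genes tested, ordered by the difference between CDK2-/- (triangles) and WT+NU6102 (squares), with WT as circles and 2 arrays per group. WT lies to the right of both in nearly all rows, and IFI27 and IFI6 near the bottom show CDK2-/- far to the left of WT+NU6102.

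The ISRE core was counted in the promoters of these genes as a pair of GAAA separated by 2 bases of any kind, on both strands. Of the 14 promoters found for genes lower in CDK2-/-, 13 held it (92.9%). Of the 16 found for genes higher in CDK2-/-, 5 held it (31.2%). It was in 9 of the 12 found for genes that did not pass (75%) and in 3.65% of all promoters. The groups were formed from the values, so no test was made. Promoters that hold the core are shown from both sides, so that its copies can be seen, and the 11 promoters of higher genes without it are not shown. Each stretch below is 100 bases long, 5′ to 3′ on the gene's own strand, with capitals marking the core on either strand (overlapping cores run together). The stretches begin 140 (IFI27), 169 (BST2), 138 (IFI6), 100 (IFITM1), 181 (SAMD9) and 114 (ISG20) bases before the start of the gene. The first 4 genes were lower in CDK2-/- and the last 2 higher. They lie at chr14:94110596-94110695 (IFI27, plus strand), chr19:17405700-17405799 (BST2, minus), chr1:27672231-27672330 (IFI6, minus), chr11:313940-314039 (IFITM1, plus), chr7:93118061-93118160 (SAMD9, minus) and chr15:88638902-88639001 (ISG20, plus) of GRCh38.p14.
IFI27: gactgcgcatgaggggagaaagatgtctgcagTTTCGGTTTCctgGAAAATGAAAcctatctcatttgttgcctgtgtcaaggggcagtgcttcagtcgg
BST2: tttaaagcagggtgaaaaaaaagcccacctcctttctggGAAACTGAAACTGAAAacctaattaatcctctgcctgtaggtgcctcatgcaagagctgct
IFI6: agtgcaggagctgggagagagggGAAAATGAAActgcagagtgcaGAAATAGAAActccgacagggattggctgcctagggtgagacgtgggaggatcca
IFITM1: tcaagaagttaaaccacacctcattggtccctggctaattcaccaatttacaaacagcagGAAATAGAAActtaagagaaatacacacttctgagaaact
SAMD9: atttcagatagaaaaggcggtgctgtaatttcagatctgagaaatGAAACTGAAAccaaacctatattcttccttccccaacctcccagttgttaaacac
ISG20: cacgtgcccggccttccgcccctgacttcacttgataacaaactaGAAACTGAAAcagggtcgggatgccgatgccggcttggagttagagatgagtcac

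Genes of cholesterol and fatty acid synthesis were nearly all higher in CDK2-/-. They are switched on by SREBP factors when membranes lack sterol. Of 35 listed 33 were tested, and 30 were higher in CDK2-/- than in WT+NU6102, only ACLY was lower (log2 fold change -0.29, adjusted p = 0.00603), and PMVK and SQLE did not pass. The median was 0.865, against -0.0037 over all genes. INSIG1, which retains SREBP in the endoplasmic reticulum, was 2.75 and 2.62 in CDK2-/- and 0.81 and 0.77 in WT+NU6102 (log2 fold change 1.89, SE 0.07, adjusted p = 2.48e-05). FDFT1, squalene synthase, was 4.30 and 4.33 against 2.65 and 2.63 (1.67, adjusted p = 1.51e-05). HMGCS1, which opens the mevalonate pathway, was 1.43 and 1.39 against -0.13 and -0.14 (1.54, adjusted p = 2.62e-05).

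No array of one state overlapped the other for these 3 genes. WT lay between the states for all 3, near CDK2-/- for INSIG1 at 2.56 and 2.51 and about midway for HMGCS1 at 0.70 and 0.59. Counted against WT, 26 of the 33 genes were lower and none higher in WT+NU6102, while in CDK2-/- 20 were higher and 3 lower.

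**Figure D4:**
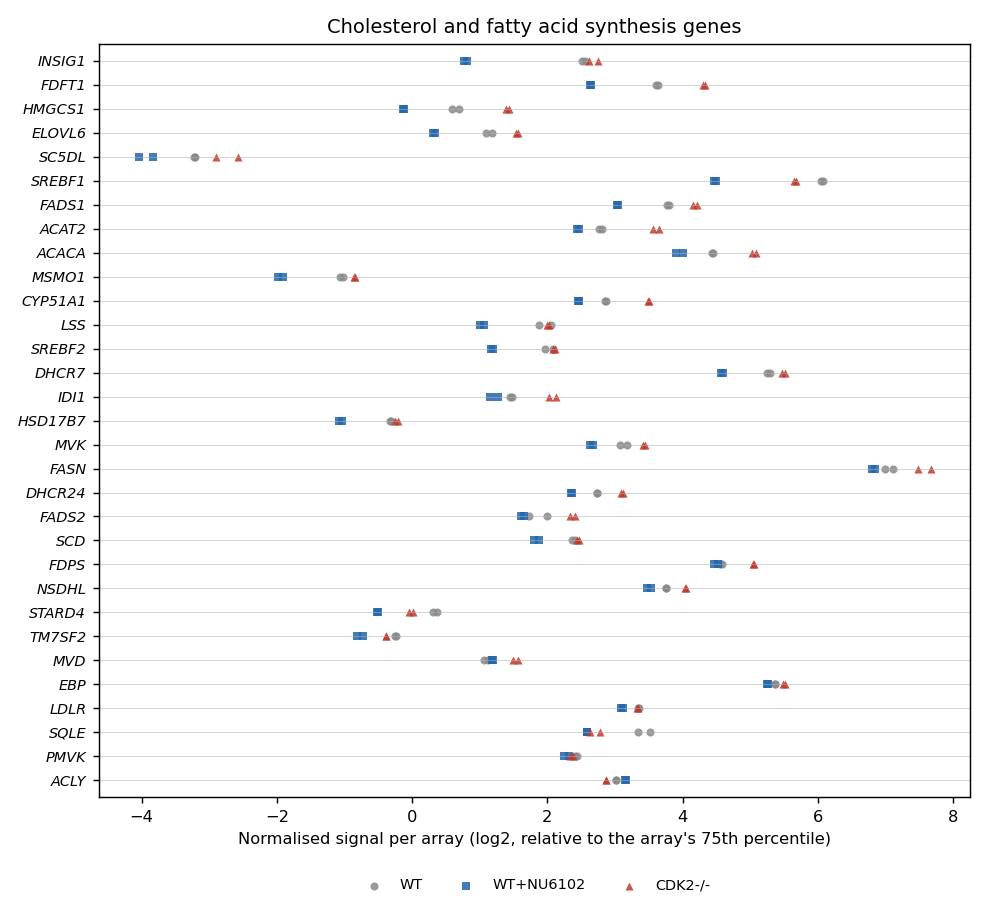
Log2 signal of each array (horizontal axis) for 31 of the 33 genes of cholesterol and fatty acid synthesis, ordered by the difference between CDK2-/- (triangles) and WT+NU6102 (squares), with WT as circles and 2 arrays per group. In most rows the squares lie to the left of WT and the triangles to its right, as for HMGCS1 at -0.13 and -0.14 against 1.43 and 1.39.

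Immediate early genes, which respond to growth factors within minutes, held large differences in both directions. Of 27 tested 13 were higher and 5 lower in CDK2-/-. FOS was 2.81 and 2.87 in CDK2-/-, -0.25 and -0.06 in WT+NU6102, and 2.67 and 2.79 in WT (log2 fold change 3.0, SE 0.08, adjusted p = 1.58e-05). FOSB was -0.04 and 0.21 against -3.27 and -3.07 (3.25, adjusted p = 4.34e-05), and EGR1 3.84 and 3.93 against 2.25 and 2.24 (1.65, adjusted p = 0.000266). For FOS the CDK2-/- arrays lay beside WT, with a log2 difference of 0.11, so the fall was on the side of the treated cells. KLF2, a zinc finger factor, was 1.14 and 1.18 in CDK2-/-, 3.81 and 3.94 in WT+NU6102, and 2.47 and 2.46 in WT (-2.72, SE 0.07, adjusted p = 1.27e-05). NR4A3, an orphan nuclear receptor, was lower with a log2 fold change of -1.87 (adjusted p = 8.82e-05), and JUN with one of -0.74 (adjusted p = 0.000927), whereas JUND was higher by 1.32 (adjusted p = 3.08e-05).

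Targets of NF-kB and chemokines were mostly lower in CDK2-/-. Of 30 listed 17 were tested, and 13 were lower and 3 higher, with a median of -0.70. Besides CXCL1 and CXCR4, CXCL2 was -2.39 and -2.73 in CDK2-/- and -1.23 and -1.05 in WT+NU6102 (log2 fold change -1.42, adjusted p = 0.00167). TNFAIP3, the deubiquitinase that limits NF-kB, was -4.03 and -4.22 against -2.58 and -2.71 (-1.48, adjusted p = 9.14e-05). For CXCL2 the treated cells lay above WT by a log2 difference of 1.1, and for TNFAIP3 they lay beside WT (0.02) and CDK2-/- lay below it (-1.46). The 3 exceptions were ICAM1, RELB (0.20, adjusted p = 0.0268) and TNFAIP2, the last at 4.13 and 4.15 in CDK2-/- and 2.96 and 2.95 in WT+NU6102 (1.19, adjusted p = 3.95e-05).

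Among TGF-beta and BMP targets 12 of 18 were higher and 4 lower in CDK2-/- (median 0.44). The ID genes, inhibitors of differentiation factors that BMP induces, led them. ID3 was 3.90 and 3.94 in CDK2-/-, 1.78 and 1.90 in WT+NU6102, and 2.68 and 2.74 in WT (log2 fold change 2.08, SE 0.06, adjusted p = 1.57e-05), ID2 was higher by 1.51 (adjusted p = 1.98e-05) and ID1 by 1.36 (adjusted p = 2.48e-05). SMAD6, which restrains BMP signalling, was 0.64 and 0.49 against -1.37 and -1.36 (1.93, adjusted p = 4.65e-05). TGFB1, the ligand TGF-beta 1, was 0.16 and 0.24 in CDK2-/- and 0.27 on both WT arrays but 1.85 and 1.90 in WT+NU6102 (-1.67, adjusted p = 1.84e-05), and SMAD7, which restrains TGF-beta signalling, was lower in CDK2-/- with a log2 fold change of -1.04 (adjusted p = 0.00014).

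Wnt feedback targets showed no common direction, with 7 of 18 higher and 6 lower. AXIN2, a scaffold of beta-catenin destruction, was above WT in both states, at -1.51 and -1.48 in CDK2-/-, -0.29 and -0.42 in WT+NU6102 and -2.86 and -2.99 in WT, and lower in CDK2-/- than in WT+NU6102 (-1.14, SE 0.08, adjusted p = 0.000128). SOX4, a transcription factor of progenitor cells, was 0.73 and 0.79 against -0.93 and -0.87 (1.66, adjusted p = 1.95e-05). Among EGF family ligands HBEGF was -2.66 and -2.46 in CDK2-/- and -0.74 and -0.77 in WT+NU6102 (-1.81, adjusted p = 4.29e-05). EPHA2 and EPHA4, ephrin receptors, went opposite ways, with EPHA4 higher in CDK2-/- by 2.59 (adjusted p = 2.45e-05) and EPHA2 lower with a log2 fold change of -1.37 (adjusted p = 4.78e-05).

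Adhesion and junction genes leaned towards CDK2-/-. Of 36 tested 18 were higher and 8 lower (median 0.21), and the list is not purely epithelial, as it includes ZEB1. DSC2, a desmosomal cadherin, was 0.55 and 0.58 in CDK2-/- and -1.62 and -1.45 in WT+NU6102 (log2 fold change 2.10, adjusted p = 4.77e-05). ZEB1, a repressor of epithelial genes, was -2.72 and -2.61 against -0.85 and -1.0 (-1.74, adjusted p = 8.00e-05), and CLDN2, a pore-forming claudin, -3.25 and -3.11 against -1.42 and -1.43 (-1.75, adjusted p = 0.000588). ELF3, an epithelial transcription factor, belongs to another list, that of intestinal epithelial identity. It was 2.55 and 2.67 in CDK2-/-, 0.53 and 0.54 in WT+NU6102, and 2.00 and 1.97 in WT (2.08, adjusted p = 1.87e-05). GATA6 of that list went the other way (-1.06, adjusted p = 0.00017). Of the 19 genes of that list well above background on all 4 arrays 5 were higher and 6 lower.

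Among 38 matrix and integrin genes 21 were higher and 7 lower (median 0.34), against the direction of SPARC. Of the 33 well above background on all 4 arrays 16 were higher and 7 lower (median 0.28). COL4A5, a chain of basement membrane collagen, was 1.27 and 1.21 in CDK2-/- and -1.19 and -1.45 in WT+NU6102 (2.56, SE 0.11, adjusted p = 4.09e-05), and COL1A1, of fibrillar collagen, was -1.66 and -1.61 against -3.67 and -3.53 (1.97, adjusted p = 3.09e-05). For COL4A6, another chain of that collagen, a dimmer probe did not pass (0.06, adjusted p = 0.925), unlike the brighter one (2.27, adjusted p = 9.19e-05).

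Of 12 markers of colon carcinoma epithelium 10 were tested, with 5 higher and 4 lower in CDK2-/-, and VIL1 and MUC13 did not pass the filter on dim probes. The epithelial genes EPCAM and KRT18 were well above background on all 4 arrays, with EPCAM between 6.23 and 6.63 and KRT18 between 7.43 and 7.81 on the 4 arrays. Of 12 fibroblast markers COL1A1 and ACTA2 alone were tested, and both were higher in CDK2-/-. Of 10 endothelial markers 3 were tested, with 2 higher in CDK2-/-, and of 12 leukocyte markers 8, with 2 higher and 1 lower. The part of other cell types in any result was not tested.

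Most heat shock genes were higher in the treated cells. Of 29 heat shock and chaperone genes tested 21 were lower and 3 higher in CDK2-/- (median -0.40). HSPA1B, an inducible HSP70, was 5.56 and 5.49 in CDK2-/-, 6.47 and 6.49 in WT+NU6102, and 5.64 and 5.57 in WT (log2 fold change -0.96, SE 0.05, adjusted p = 6.39e-05). Of 31 genes of the amino acid and endoplasmic reticulum stress response 18 were lower, 3 higher and 10 did not pass. DDIT3, or CHOP, a factor of prolonged stress, was -2.63 and -2.59 in CDK2-/- and -0.03 and 0.23 in WT+NU6102 (-2.71, SE 0.09, adjusted p = 2.41e-05), and SLC7A11, the cystine transporter, 1.5 and 1.36 against 2.81 and 2.70 (-1.33, adjusted p = 7.89e-05). HSPA5, the chaperone BiP of the same response, went the other way at 3.58 and 3.49 against 2.87 and 2.80 (0.70, adjusted p = 0.000278).

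Of 41 translation initiation genes 30 were lower and 3 higher (median -0.40), and 27 of the 41 were above WT in WT+NU6102 and 5 in CDK2-/-. EIF2B4, EIF2B2 and EIF2B3, subunits of the exchange factor of eIF2, were lower with log2 fold changes of -1.19, -1.05 and -1.05. EIF4A2, a helicase, was 4.78 and 4.77 in CDK2-/- and 3.57 and 3.61 in WT+NU6102 (1.19, adjusted p = 4.01e-05), while its relative EIF4A1 was 5.33 on both arrays against 6.12 on both (-0.79, adjusted p = 9.49e-05). Of 78 cytosolic ribosomal proteins 56 did not pass, 20 were higher and 2 lower, with a median of 0.11, which is below the shift between scalings. Of 46 genes of the nuclear pore and RNA export 25 were lower and 9 higher (median -0.28). CLK3 and CLK1, kinases of splicing factors, were lower in CDK2-/- with log2 fold changes of -1.87 and -1.49, with CLK3 at 1.20 and 1.15 against 3.05 and 3.04 (adjusted p = 2.57e-05).

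Of 28 genes tested that respond to foreign compounds 8 were higher and 10 lower, close to the shares over all genes. Of the 24 well above background on all 4 arrays 5 were higher and 10 lower. Over all 15400 genes so measured, 4295 were higher and 4986 lower. CYP1A1, the classic target of the aryl hydrocarbon receptor, was -3.63 and -3.88 in CDK2-/-, -1.27 and -1.39 in WT+NU6102, and -2.95 and -3.30 in WT (log2 fold change -2.42, SE 0.15, adjusted p = 9.48e-05). CYP1B1, another target, was -3.12 and -3.20 against -1.0 and -1.14 (-2.08, adjusted p = 8.17e-05). ABCC2, an exporter of conjugates, was 4.06 on both CDK2-/- arrays and 2.09 and 2.00 in WT+NU6102 (2.01, adjusted p = 1.84e-05). ABCC3, a related exporter, was higher by 2.05 on its brighter probe (adjusted p = 1.97e-05) and lower on another (-0.29, adjusted p = 0.0105).

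Targets of p53 were mostly higher in CDK2-/-, with 20 of 33 higher and 7 lower (median 0.42). TP53INP1, a promoter of autophagy and cell death, was -0.23 and -0.18 in CDK2-/-, -1.97 and -2.18 in WT+NU6102, and -0.94 and -0.90 in WT (log2 fold change 1.87, SE 0.08, adjusted p = 3.86e-05). BAX, which opens the mitochondrial membrane, was 3.10 and 3.02 against 1.96 and 2.03 (1.06, adjusted p = 6.90e-05), and TNFRSF10C, a decoy receptor of TRAIL, was higher by 2.25 (adjusted p = 0.000214). PMAIP1, or NOXA, was lower with a log2 fold change of -0.76 (adjusted p = 0.000351). In the BCL2 family, with 5 of 19 higher and 10 lower, BNIP3 was 2.67 and 2.60 against 3.67 and 3.72 (-1.06, adjusted p = 4.83e-05), and BCL2 itself was lower with a log2 fold change of -1.05 (adjusted p = 0.00887, and 0.0514 without CDK2-/- replicate 1).

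In DNA repair 15 of 48 genes were higher and 19 lower. MSH6, of mismatch repair, was 4.54 and 4.46 in CDK2-/- and 3.47 and 3.46 in WT+NU6102, with WT at 3.40 and 3.38 (1.03, SE 0.05, adjusted p = 4.50e-05), while RAD1, of the checkpoint clamp, was 0.49 and 0.47 against 1.40 and 1.42 (-0.93, adjusted p = 4.58e-05). In glycolysis and hypoxia 18 of 32 genes were lower and 8 higher (median -0.24). ENO2, a neuronal enolase, was -0.88 and -0.77 in CDK2-/- and 0.96 and 0.95 in WT+NU6102 (-1.78, SE 0.06, adjusted p = 2.08e-05), and NDRG1, a gene induced by hypoxia, was 2.41 and 2.44 against 1.21 and 1.19 (1.23, adjusted p = 4.51e-05).

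Genes of MHC class I presentation resembled the interferon genes in lying below WT in both states, with 13 of 20 lower and none higher in CDK2-/- and 15 lower and 1 higher in WT+NU6102. Between the states 4 were higher and 7 lower in CDK2-/-, all by less than 2-fold. PSMB9, a subunit of the immunoproteasome, was -0.25 and -0.22 in CDK2-/-, 0.14 and 0.18 in WT+NU6102, and 1.95 and 1.84 in WT (log2 fold change -0.39, adjusted p = 0.00187). Zinc finger genes of chromosome 19, many of which silence transposable elements, contained 71 genes higher and 32 lower among 177 tested of 252 listed (median 0.12). Of these, 28 were at least 2-fold higher and none 2-fold lower in CDK2-/-, against 1417 and 565 of all 16649 genes. The 2-fold count includes genes that only CDK2-/- arrays read well above background. ZNF613 was -0.99 and -1.01 in CDK2-/- and not well above background in WT+NU6102, which makes it at least 15.6-fold higher (adjusted p = 9.27e-05). ZNF134 was at least 13.2-fold and ZNF266 at least 12.7-fold higher in CDK2-/-. ZNF613, ZNF134 and ZNF266 were not well above background on the WT arrays either. Among the 157 zinc finger genes well above background on all 4 arrays, 55 were higher and 32 lower. Their median was 0.029, against -0.028 over all genes so measured.

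The remaining lists held differences in both directions. Of the 18 keratins 9 were higher and 5 lower, and of 26 genes of intestinal epithelial identity 10 and 7. Among the 19 of the latter well above background on all 4 arrays 5 were higher and 6 lower. Of 29 genes of DNA methylation and silencing 11 were higher and 10 lower, of 75 respiratory chain subunits 10 and 20, of 38 genes of lysosome and autophagy 8 and 14, and of 39 splicing factors 5 and 15. Of 21 ERK feedback genes 9 were higher and 5 lower, of 10 EGF receptors and ligands 5 and 4, and of 13 E2F and pocket proteins 2 and 5. Among the 8 EGF receptors and ligands well above background on all 4 arrays 3 were higher and 4 lower. The medians of the respiratory, lysosome, splicing, ERK feedback, MHC class I, DNA repair, foreign compound and replication lists changed sign under at least 1 processing alternative, and no direction is given for these lists as a whole.

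**Figure D5:**
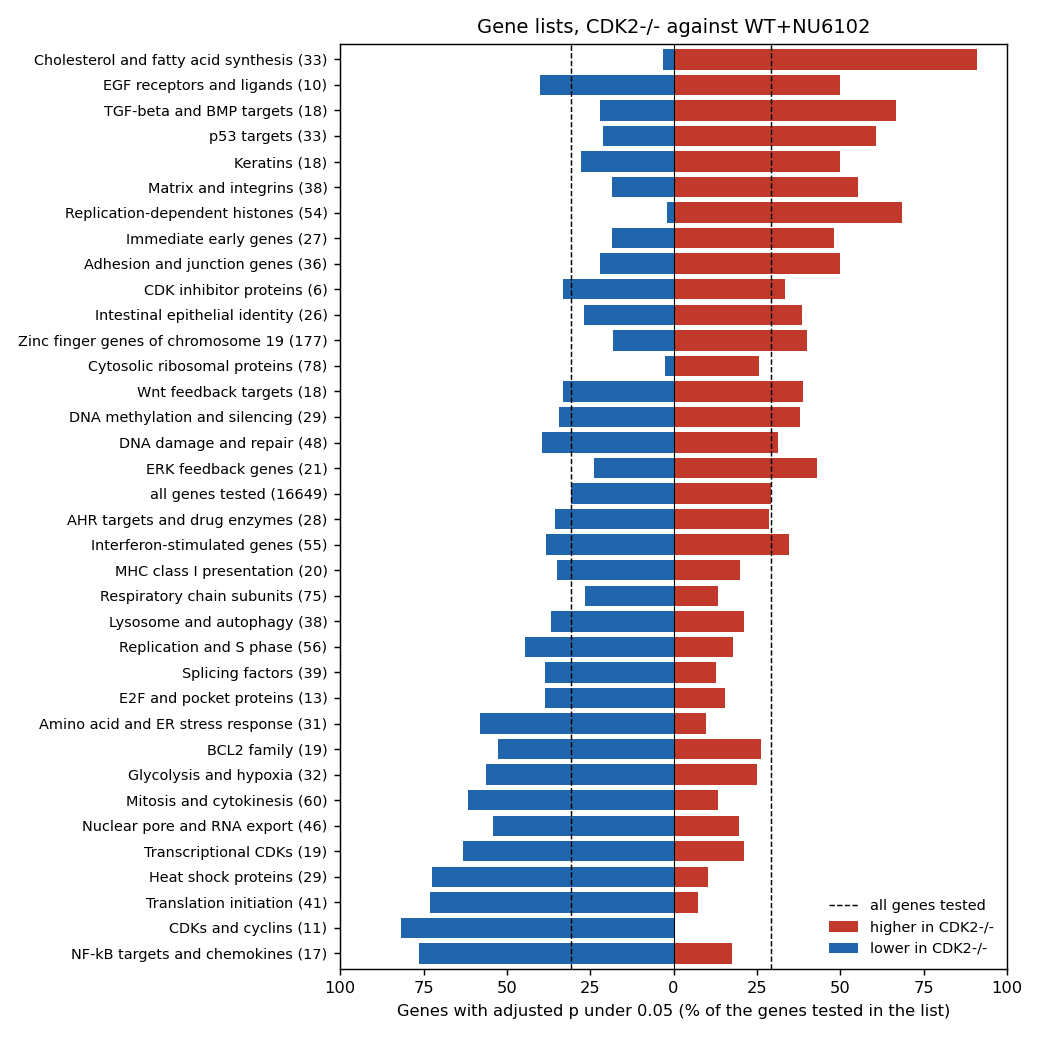
Share of the tested genes of each list with an adjusted p under 0.05 (horizontal axis, percent), higher in CDK2-/- to the right in red and lower to the left in blue, with the number tested in parentheses. The dashed lines are the shares over all genes, 29.2% higher and 30.7% lower, and cholesterol and fatty acid synthesis at the top reaches furthest right with 30 of 33 genes.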

How the data were processed

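Total RNA was hybridised to 1-colour Agilent SurePrint G3 Human GE arrays. The authors deposited scanner files from Feature Extraction, whose version the submitters' processing notes give as 11.5.1.1, and the processed signal in them is a background-corrected intensity on a linear scale. They also deposited a table of normalised log2 values, used here only as an alternative. Log2 of the intensity minus the 75th percentile of each array was computed, control spots and outlier flags were left out, and spots of a probe were averaged. Probes that both CDK2-/- or both WT+NU6102 arrays read well above background were tested with limma 3.58.1 in R 4.3.3, in a fit over all 8 arrays (groups WT, WT+NU6102, CDK2-/- and R50, 2 arrays each) that shared 1 estimate of the spread, with Benjamini-Hochberg adjustment. A gene was represented by its brightest probe. The pipeline was tested on simulated data.

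The members, gene lists and tests were chosen with earlier results of these data known. Named were the genes with the largest rise and fall, those with the largest bounds, the cell cycle genes and the leading genes of each list, and other genes named were chosen after their values were seen. Some genes that the rule names are not reported here, though they remain in the counts. Gene symbols are those of the array design, probe positions are hg19 as the WT scanner files give them, and promoters are from RefSeq, GRCh38.p14. Alternatives were background correction, normalisation, probe filter, scaling, prior variance, the methods' tests, a replicate block and leaving out each array.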

Additional observations from a re-analysis of the deposited data

How the results depend on the processing

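The 3273 probes called became 1455 (957 higher and 498 lower in CDK2-/-) with normexp background correction and an offset of 50, and 886 (569 and 317) with the methods' ANOVA at an adjusted p under 0.001. The other alternatives stayed within 1.5 times. Leaving out 1 array gave between 3218 and 3780 probes, and between 12612 and 15268 without the minimum fold change, where the lone array of a group was assumed to vary like the other groups. With the replicate number as a block 3243 probes were called (2225 and 1018), and 15062 without the minimum fold change. Deviations of arrays with the same number correlated between -0.0246 and 0.048, so the numbers do not pair the arrays.

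Another probe of the gene gave the opposite direction for CDK1 (0.50), CCNB1 (1.32), CENPN (0.023), FANCA (-0.42 and -0.087), ABCC3 (-0.29), NUPL1 (0.53), RPL22 (-0.23) and CBX5 (-0.066), and the cause was not tested. The 2 arrays per group limit the precision, and dim probes have only bounds. The size of some fold changes also depended on the processing, with the same probe used throughout. The log2 fold change ranged from 4.22 to 6.10 for GRHL3, -6.89 to -5.16 for SPARC, 1.35 to 2.72 for EPHA4 and -1.62 to -0.72 for TNFAIP3. Others moved less, such as AQP3 (3.83 to 4.21) and FXYD3 (3.69 to 3.92). Single genes were followed over the alternatives and other probes only for the largest rises and falls, the cell cycle genes and the leading genes of each list. Genes with bounds and those chosen after their values were seen, such as CCNE2, IRF9 and EGR1, were not followed. The genes followed kept their direction and side of the threshold in 2698 instances, lost the call in 42, gained it in 8 and reversed in the 9 given above. The list medians moved by more than the replicate spread in 110 instances and by less in 520.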
